A study of Homo sapiens with 6 samples.

Results

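Keratin transcripts were measured in DU-145/tet-XISTshRNA cells, a castration-resistant prostate cancer line that carries a doxycycline-inducible shRNA against the long noncoding RNA XIST. The members were 10 keratin genes listed by name, of 25528 gene symbols in the TPM table. These were the simple keratins KRT7, KRT8, KRT18 and KRT19, the basal and stratified keratins KRT5, KRT6A, KRT14, KRT15 and KRT17, and KRT80. RNA sequencing compared 3 samples treated with vehicle (0.1% DMSO) with 3 samples treated with 500 ng/ml DOX for 7 days, and all 6 samples were of the same transduced and drug-selected DU145 cells. No sample with DOX and a control shRNA was analysed here, so effects of DOX and of the shRNA cannot be told apart. The shRNA target XIST was listed at 0 in all 6 samples, so the table does not check the silencing. EIF4A1, a translation factor gene that most cells express, was also listed at 0 throughout, so an exact 0 in this table may be a failed estimate. The labels describe cultures in triplicate, without saying whether these were separate experiments, and p-values measure the spread between those samples.

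Keratins are the intermediate filament proteins of epithelial cells. A filament forms from a pair of chains, 1 acidic type I keratin and 1 basic type II keratin, and each chain is unstable without a partner. Simple epithelia use mainly KRT8 with KRT18, as the luminal layer of the prostate does, and some simple epithelia also use KRT7 and KRT19. The basal layer of the prostate and of stratified epithelia is known for KRT5 with KRT14, together with KRT15 and KRT17, and KRT6A is known from stress and wound responses. KRT80 is a type II keratin found in many epithelia.

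The members expressed in these DU-145 cells were the 4 simple keratins and KRT80. KRT7, KRT18, KRT8, KRT19 and KRT80 were above 10 scaled TPM in every sample. KRT15 stayed below 1 scaled TPM, and KRT17 and KRT6A had at most 7 reads in a sample. KRT5 and KRT14 were listed at 0 in all 6 samples, which may be a failed estimate, as stated above. On the scaled TPM, the expressed keratins were 1.25-fold to 1.52-fold higher in DOX-treated cells, and in 4 of the 5 every DOX sample lay above every vehicle sample. None of these differences passed the adjusted threshold in the main comparison, and on TPM as deposited the log2 fold changes ran from -0.12 to 0.17. KRT19 passed the threshold in a read-based fit that pairs samples by replicate number, and no longer did so when GC content and gene length were corrected.

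TPM (transcripts per 1000000 transcripts) divides reads by gene length and sets the total of each sample to 1000000. In these libraries 5 small RNAs held 67.5% to 82.6% of that total. Values were therefore scaled by the median of ratios over 15075 genes detected in every sample, and the result is called scaled TPM. The divisors ran from 0.686 in DOX replicate 1 to 1.40 in vehicle replicate 3. Reads counted on genes, recovered from the deposited values, ranged from 5453775 in vehicle replicate 3 to 64573249 in DOX replicate 1, and from 16701879 to 20352046 in the other 4 samples. The 5 expressed keratins had from 381 reads (KRT80 in vehicle replicate 3) to 37497 reads (KRT7 in DOX replicate 1) in a sample. DOX replicate 1 was thus both the deepest library and the sample with the highest scaled TPM of KRT7, KRT8, KRT18, KRT19 and KRT80, and the part of depth in these values was not tested.

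KRT7, a type II keratin of simple and glandular epithelia, was the most abundant member. Its gene lies on the plus strand of chromosome 12 at chr12:52232520-52252186 (GRCh38, GENCODE 44). With vehicle, replicates 1, 2 and 3 had 181, 132 and 121 scaled TPM, and with DOX they had 262, 185 and 193. All DOX samples lay above all vehicle samples, although vehicle replicate 1 came close to DOX replicate 2. The means were 145 ± 31.8 and 213 ± 42.6 (SD, n = 3 each), a log2 fold change of 0.56 ± 0.19 (SE) on the log2(scaled TPM + 1) scale used for all fold changes here. This is a 1.48-fold difference with a 95% confidence interval of 1.11 to 1.97, and it did not pass (limma with Benjamini-Hochberg adjustment over 11630 genes, adjusted p = 0.281). More RNA per cell and more cells that express a gene cannot be told apart in these bulk samples.

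KRT8, the type II keratin that pairs with KRT18, lies on the minus strand at chr12:52897187-52949954. Scaled TPM in replicates 1, 2 and 3 was 79.3, 54.6 and 62.7 with vehicle and 117, 91.6 and 81.5 with DOX. The groups did not overlap, but vehicle replicate 1 was close to DOX replicate 3. The means were 65.5 ± 12.6 with vehicle and 96.8 ± 18.4 with DOX (SD, n = 3), and the log2 fold change was 0.56 ± 0.18 (SE), adjusted p = 0.281 by limma.

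KRT18, the type I partner of KRT8, lies on the plus strand at chr12:52948871-52952906, and its annotated span overlaps the start of KRT8 on the opposite strand. Because the strand setting of the counting is not given in the sources used here, reads of this stretch could be split between the genes. Scaled TPM of KRT18 was 86.3, 69.2 and 105 with vehicle and 123, 103 and 96.7 with DOX in replicates 1, 2 and 3. The groups overlapped, since vehicle replicate 3 was higher than DOX replicates 2 and 3. The means were 86.8 ± 17.9 and 108 ± 13.8 (SD, n = 3), with a log2 fold change of 0.32 ± 0.17 (SE) and an adjusted p of 0.356 by limma. Without vehicle replicate 2 the log2 fold change of KRT18 was 0.17 (adjusted p = 0.810 by limma). KRT18 was the expressed member with the smallest difference.

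KRT19, the smallest type I keratin and one that can pair with KRT7 or KRT8, lies on the minus strand of chromosome 17 at chr17:41523617-41528308, beside KRT15. Scaled TPM was 64.8, 44.5 and 63.8 with vehicle and 112, 73.4 and 80.1 with DOX. All DOX samples were above all vehicle samples, and DOX replicate 1 stood clearly above the other DOX samples. The means were 57.7 ± 11.4 and 88.6 ± 20.9 (SD, n = 3). KRT19 had the highest log2 fold change of the members, 0.61 ± 0.19 (SE), or 1.52-fold with a 95% confidence interval of 1.13 to 2.06, and it did not pass (limma, adjusted p = 0.281). Without DOX replicate 1 the log2 fold change of KRT19 was 0.42, adjusted p = 0.552 by limma.

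KRT80 was the least abundant of the expressed members, and KRT7 was 9.07 to 12.3 times higher in the same samples. It lies on the minus strand at chr12:52168996-52192014. Scaled TPM was 17.5, 14.4 and 13.2 with vehicle and 21.3, 18.3 and 21.2 with DOX in replicates 1, 2 and 3. The groups were separate but vehicle replicate 1 and DOX replicate 2 were less than 1 unit apart. The means were 15.0 ± 2.26 and 20.3 ± 1.73 (SD, n = 3), and the log2 fold change was 0.42 ± 0.14 (SE), adjusted p = 0.281 by limma.

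**Figure D1:**
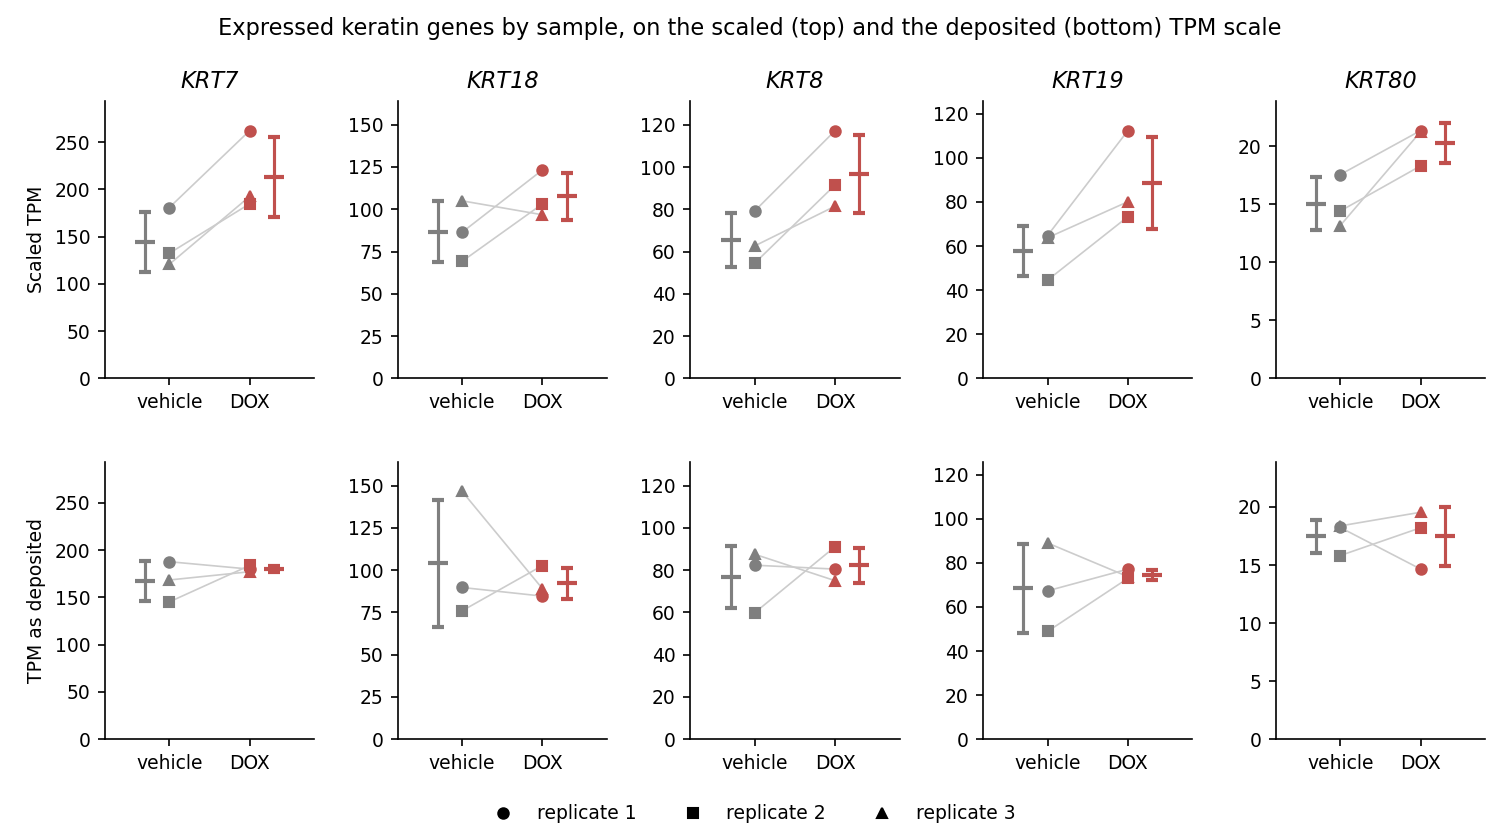
Values of the 5 expressed keratin genes in each sample, as scaled TPM (top row) and as TPM deposited by the authors (bottom row), with the same y axis from 0 for both rows of a gene. Symbols are samples, grey lines join samples with the same replicate number, and bars at the side show the mean ± SD of 3 samples. In the top row the DOX samples of KRT7, KRT8, KRT19 and KRT80 lie above all vehicle samples, and in the bottom row the groups overlap for each gene.

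The members that are low in these cells gave little to compare. KRT15 scaled TPM was 0.481, 0.218 and 0.562 with vehicle and 0.395, 0.246 and 0.218 with DOX, from 19, 10 and 7 reads and 62, 11 and 9 reads. The difference of mean log2(scaled TPM + 1) was -0.14, with a two-sided exact permutation p of 0.4, where 3 samples against 3 cannot give less than 0.1. KRT17 had 0 reads in each vehicle sample and 7, 1 and 0 reads with DOX. The 7 reads came from the deepest library, and a count of 0 allows up to 3.69 reads (95% exact Poisson interval, counting error only), so a difference was not detectable at this depth. KRT6A had 1 read, in DOX replicate 1. The basal pair KRT5 and KRT14 was listed at 0 in all samples of both groups.

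The count of members was read against all genes tested. Of the 10 keratins, 5 had a mean scaled TPM of at least 1 and were tested with 11630 genes in all. In the main comparison 0 of the 5 were called higher and 0 lower at an adjusted p under 0.05 and a fold change over 1.5, against 0% of all genes in each direction. At that fold and an unadjusted p under 0.05, 138 genes of all those tested were higher and 133 lower. An unadjusted p under 0.05 with a higher value in DOX was found for 4 of the 5 keratins, against 8.1% of all genes. Groups did not overlap, with DOX above vehicle, for 4 of the 5, against 10.9% of all genes, and 0 of the 5 lay below, against 9.13%.

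The median log2 fold change of the 5 tested keratins was 0.56, beside 0.02 for all genes tested. Of all genes tested, 1.07% had a larger log2 fold change than KRT19. The corresponding share was 1.5% for KRT7, 1.57% for KRT8, 4.97% for KRT80 and 10.5% for KRT18. The members thus lay toward the upper end of a distribution in which no gene was called.

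**Figure D2:**
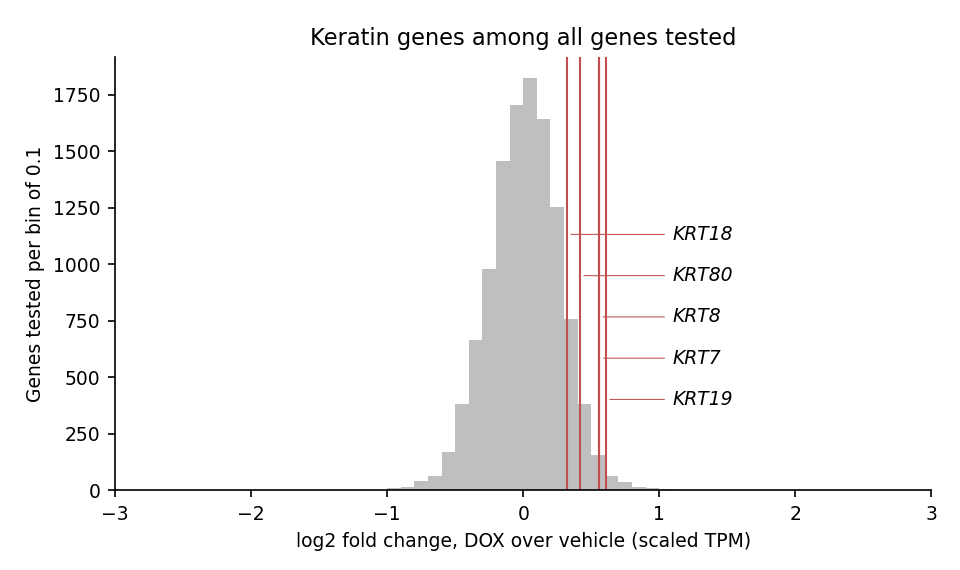
Distribution of the log2 fold change of DOX over vehicle (x axis, scaled TPM) over the 11630 genes tested, as the number of genes per bin (y axis). Red lines mark the 5 tested keratins, which lie between 0.32 and 0.61, to the right of the median of all genes at 0.02.

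Once group means were subtracted, samples of equal number correlated across genes, with r = 0.558, 0.259 and 0.186 for numbers 1, 2 and 3. After correction for GC content and gene length r fell to 0.162, 0.00792 and 0.148. Samples of unlike number were not compared, so pairing by number was assumed rather than tested. Differences were also taken within replicate numbers under that assumption. The log2 difference of DOX minus vehicle in numbers 1, 2 and 3 was 0.53, 0.48 and 0.67 for KRT7, and 0.56, 0.74 and 0.37 for KRT8. It was 0.79, 0.71 and 0.33 for KRT19, and 0.27, 0.32 and 0.65 for KRT80. All 4 genes were thus higher with DOX in 3 of 3 pairs. KRT18 was higher in numbers 1 and 2, by 0.51 and 0.57, and was -0.12 in number 3, the pair with the shallow vehicle library.

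With the replicate number as a block, 0 of the 5 keratins were called by limma, against 0% of all genes, with adjusted p-values of 0.0553 for KRT7, KRT8 and KRT19, 0.0725 for KRT80 and 0.189 for KRT18. On recovered reads, limma voom with the same block called KRT19 higher (log2 fold change 0.64 ± 0.11 SE, adjusted p = 0.0118). That is 1 of the 5 keratins, against 1.46% of all genes called higher and 2.16% called lower by this fit. Without the fold minimum, KRT7 (adjusted p = 0.0111), KRT8 (adjusted p = 0.0119) and KRT80 (adjusted p = 0.0327) joined KRT19 in this voom fit, which made 4 of the 5 against 5.63% of all genes. KRT18 had an adjusted p of 0.0884 there. Leaving out both samples of number 1 ended the KRT19 call (log2 fold change 0.54, adjusted p = 0.0553 by voom). Leaving out number 2 added KRT7 to the calls, which made 2, and leaving out number 3 left 1. With few samples left per group, p-values of these leave-out fits lean mostly on the variance pooled over genes.

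GC content and length of the keratins differed from those of most genes. The 5 tested keratins had a median GC content of 57.5% over their exons, against 47.0% for all genes tested, and a median exonic length of 3999 against 5472 bases. After correction for GC content and length in each sample, the median log2 fold change of the 5 keratins was 0.33 by limma. It was 0.34 for KRT7, 0.41 for KRT8, 0.11 for KRT18, 0.33 for KRT19 and 0.20 for KRT80. With voom, the replicate block and this correction, 0 keratins were called, and KRT19 had a log2 fold change of 0.31 with an adjusted p of 0.179. The same fit gave 0.40 for KRT8 (adjusted p = 0.106) and 0.30 for KRT7 (adjusted p = 0.135).

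On TPM as deposited, the picture of the same samples differed. KRT7 had 188, 145 and 168 TPM with vehicle and 180, 184 and 177 TPM with DOX, and the groups overlapped. KRT18 had 89.7, 75.9 and 147 TPM with vehicle and 84.6, 103 and 89.0 TPM with DOX, where vehicle replicate 3 was far above the rest. Log2 fold changes on this scale were 0.12 for KRT7 and KRT8, 0.17 for KRT19, -0.01 for KRT80 and -0.12 for KRT18. The median over all genes was -0.35 on this scale, and 0 keratins were called, against 0.0257% of all genes called higher and 2.98% called lower. All 5 keratins lay above that median. The direction for KRT18 and KRT80 therefore depends on the scale.

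**Figure D3:**
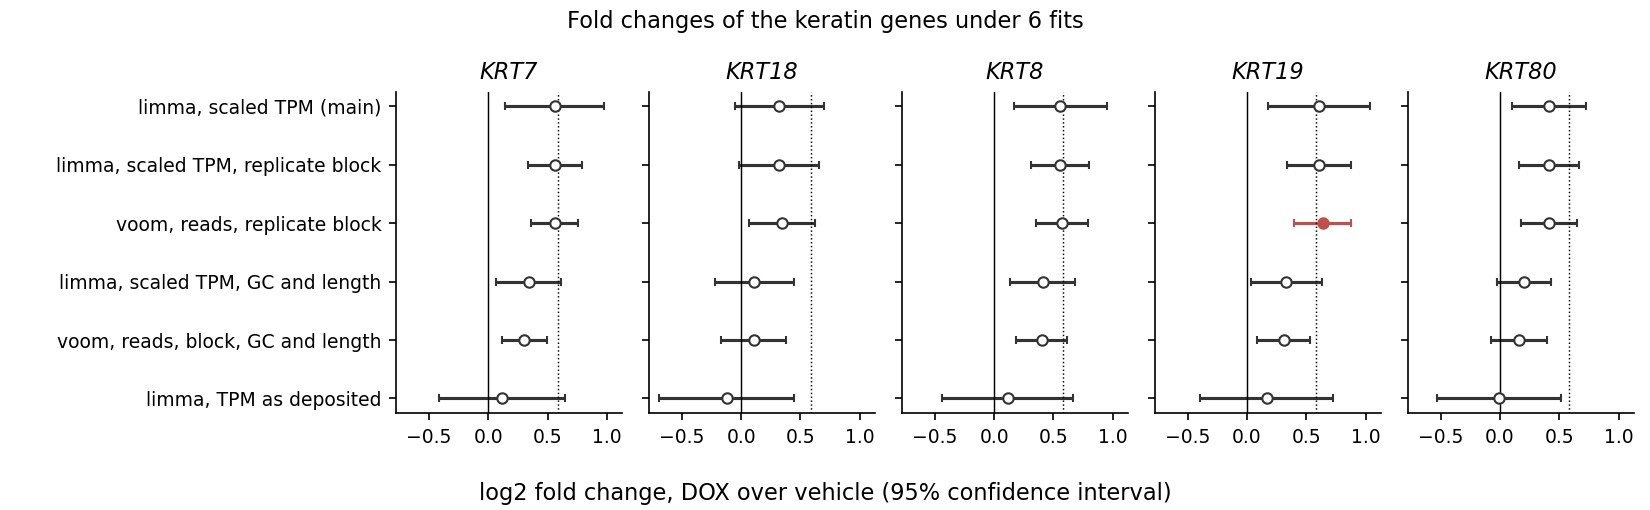
Log2 fold change of DOX over vehicle (x axis) with its 95% confidence interval for each expressed keratin under 6 fits (y axis). The dotted line is the 1.5-fold minimum, and the filled red point is the KRT19 call by voom on reads with the replicate block. The other points are not called, and the estimates are lower with GC and length correction and near 0 on the deposited scale.

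Ratios between keratins of a sample do not depend on its scaling, and they showed a similar composition in all samples but 1. KRT7 made up 42.1%, 42.0% and 33.0% of the summed TPM of the 10 keratins with vehicle and 41.2%, 39.2% and 40.8% with DOX. KRT18 made up 20.1%, 21.9% and 28.7% with vehicle and 19.4%, 21.9% and 20.5% with DOX. In vehicle replicate 3, the shallowest library, the share of KRT18 was thus the highest and that of KRT7 the lowest of the 6 samples. The mean shares with vehicle and DOX were 17.6% ± 0.725 and 18.4% ± 1.09 for KRT8, 15.5% ± 1.70 and 16.7% ± 1.06 for KRT19, and 4.09% ± 0.487 and 3.91% ± 0.574 for KRT80 (SD, n = 3). The groups overlapped for each of these 5 keratins.

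KRT15 was the exception among the shares. It made up 0.112%, 0.0691% and 0.154% of the keratin TPM with vehicle and 0.0620%, 0.0522% and 0.0462% with DOX, so that the groups did not overlap. These shares rest on 7 to 62 reads a sample. The scaled TPM of KRT15 itself overlapped between groups, and the keratin sum that divides it was higher in every DOX sample. On scaled TPM, all genes tested lay wholly below vehicle with DOX in 9.13% and wholly above in 10.9%. These percentages are not a background for a share, since other genes were not divided by the keratin sum. KRT15 itself was not among the genes tested.

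Type I keratins together had 0.546, 0.566 and 0.861 times the TPM of the type II keratins with vehicle and 0.589, 0.60 and 0.599 times with DOX. Vehicle replicate 3 again stood apart, and the other 5 samples ran from 0.546 to 0.60. For the pair KRT18 and KRT8, the ratio was 1.09, 1.27 and 1.67 with vehicle and 1.05, 1.13 and 1.19 with DOX. For KRT19 over KRT7 it was 0.358, 0.336 and 0.528 with vehicle and 0.429, 0.397 and 0.416 with DOX. The groups overlapped in both. The sum of the 10 keratins was 429, 315 and 366 scaled TPM with vehicle and 637, 471 and 472 with DOX, and on TPM as deposited it was 446, 346 and 511 against 437, 469 and 435.

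**Figure D4:**
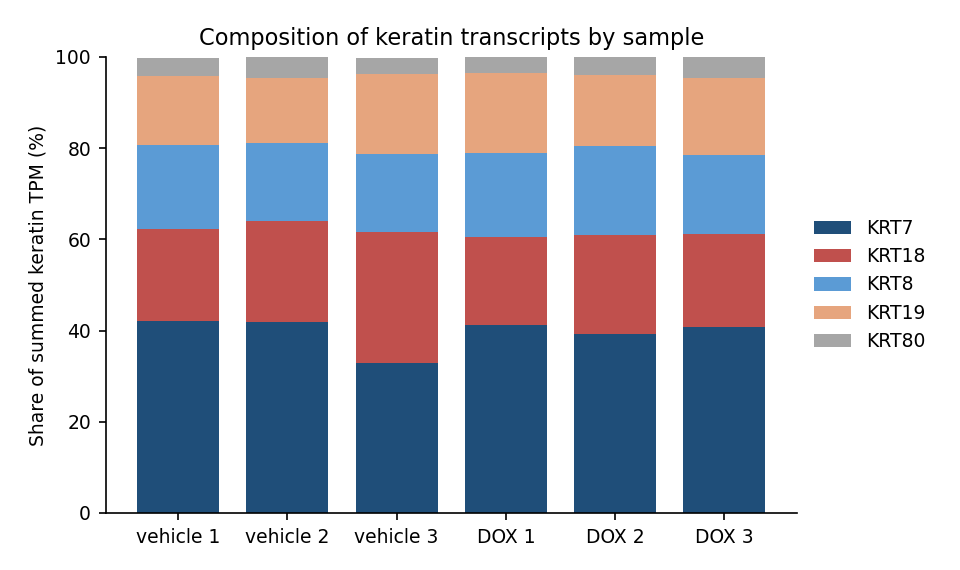
Share of each expressed keratin in the summed TPM of the 10 keratins (y axis, percent) in the 6 samples (x axis). KRT7 takes 33.0% in vehicle replicate 3 and 39.2% to 42.1% in the other samples, where KRT18 takes 19.4% to 21.9% against 28.7% in that library.

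The order of levels, which TPM allows because it is per gene length, was KRT7, KRT18, KRT8, KRT19 and KRT80 by mean scaled TPM. KRT7 was above KRT18 in 6 of 6 samples, by 1.15 to 2.13 times. KRT18 was above KRT8 in 6 of 6, by 1.05 to 1.67 times, and KRT19 above KRT80 in 6 of 6, by 3.09 to 5.27 times. The order of KRT18 and KRT8 rests on the gene lengths behind TPM and on how reads of their overlap were counted. In recovered reads KRT8 was the higher in each sample except vehicle replicate 3 (995 against 1050), as in DOX replicate 1 (23473 against 15541). KRT8 and KRT19 did not differ beyond their spread, since KRT8 was higher in 5 of 6 samples and the ratio went down to 0.983.

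The expressed members are a small part of the keratin gene clusters. The type II cluster on chromosome 12 holds 6 members between positions 52168996 and 52952906 (GRCh38). These are 5 type II keratins and the type I keratin KRT18. The type I cluster on chromosome 17 holds 4 members between 41513745 and 41624842. Of all 55 keratin genes considered, 27 lie on chromosome 12 and 28 on chromosome 17, and 5 and 2 of these reached a mean scaled TPM of 1. Of the 45 keratins outside the list, 33 were listed at 0 in all samples. KRT10, a type I keratin of differentiated epidermis, had 7.88, 8.17 and 8.01 scaled TPM with vehicle and 8.29, 8.98 and 11.2 with DOX, a log2 fold change of 0.21 (adjusted p = 0.435 by limma). KRT4, a type II keratin of mucosal epithelia, had 2.20, 1.58 and 1.94 with vehicle and 3.74, 1.21 and 3.56 with DOX, a log2 fold change of 0.33 (adjusted p = 0.522 by limma). The KRT4 value moved with each DOX sample. Without DOX replicate 2 it was 0.68 (adjusted p = 0.0627 by limma), and without both samples of number 2 voom with the block called KRT4 higher (0.79, adjusted p = 0.0139). That voom fit has few samples left, so its p-value leans mostly on the variance pooled over genes. Without DOX replicate 1 or 3 the log2 fold change of KRT4 was 0.13 or 0.16 by limma.

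Genes whose scaled TPM followed a member most closely over the 6 samples were named by the mean absolute difference of centred log2(scaled TPM + 1) among 4610 genes. For KRT7 these were SLC4A2, TGFB1 and BSG, with differences of 0.0365 to 0.0418. For KRT8 they were QSOX1, GIPC1 and RBM42, at 0.0233 to 0.0446, and for KRT18 the closest genes included RNF26 at 0.0552 and MT1E at 0.0612. Among the members themselves the closest of 10 pairs were KRT7 with KRT8 at 0.106, KRT7 with KRT80 at 0.130 and KRT8 with KRT19 at 0.138. KRT8 and its partner KRT18 were farther apart, at 0.171.

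Genes that work with keratin filaments were described from lists. None of the members of these lists was called by limma, with or without the replicate block. Desmosomes anchor keratin filaments at cell contacts, and 13 of 19 desmosome and plakin genes were tested, with a median log2 fold change of 0.04. DSG2, a desmosomal cadherin, had 76.5 ± 11.3 scaled TPM with vehicle and 59.3 ± 10.4 with DOX (SD, n = 3), and JUP, or plakoglobin, had 23.9 ± 2.42 and 28.9 ± 12.2. DST, a plakin that ties keratin filaments to hemidesmosomes, had 44.2, 46.2 and 42.9 with vehicle and 20.5, 45.2 and 22.6 with DOX. DOX replicate 2 was within the vehicle values and the other DOX samples were well below them. DST was called lower by voom with the replicate block (log2 fold change -0.69, adjusted p = 0.0232) and was not called by limma (log2 fold change -0.67, adjusted p = 0.282).

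Hemidesmosomes fix keratin filaments to the basement membrane, and 5 of 6 of their genes were tested, with a median of 0.31. DST belongs to this list too and was the only one of the 5 called by voom with the block, which called 2.16% of all genes lower. PLEC, the cross-linker plectin, had 12.8 ± 2.63 scaled TPM with vehicle and 18.0 ± 4.11 with DOX (SD, n = 3; log2 fold change 0.45, adjusted p = 0.291 by limma).

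Of 16 other intermediate filament genes, 6 were tested, with a median log2 fold change of 0.22. In 3 of these all DOX samples lay above all vehicle samples, against 10.9% of all genes, and in 0 below, against 9.13%. VIM, the mesenchymal filament protein vimentin, was more abundant than any keratin, with 304, 319 and 360 scaled TPM with vehicle and 400, 408 and 366 with DOX (log2 fold change 0.26, adjusted p = 0.341 by limma). LMNA, which encodes nuclear lamins A and C, had 23.2, 18.8 and 17.4 with vehicle and 35.1, 26.7 and 24.5 with DOX (log2 fold change 0.51, adjusted p = 0.281 by limma). Both genes had DOX samples above all vehicle samples.

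Of 17 genes that bind or fold keratins, 11 were tested, with a median of 0.09. YWHAZ, the most abundant of them, had 257 ± 18.3 scaled TPM with vehicle and 268 ± 30.0 with DOX (SD, n = 3; log2 fold change 0.06, adjusted p = 0.842 by limma). HSPB1, a small heat shock protein that associates with filaments, had 93.6, 67.5 and 114 scaled TPM with vehicle and 169, 105 and 117 with DOX, and the groups overlapped. AKAP9, an anchoring protein known mainly from the centrosome and Golgi, was the only one of the 11 called by voom with the block (lower, log2 fold change -0.59, adjusted p = 0.0232; 2.16% of all genes were called lower) and was not called by limma (adjusted p = 0.282). Of 16 transcription factors that act on keratin genes, 9 were tested, with a median of -0.07 and 0 called by any of these 3 fits. KLF5, an epithelial factor and the most abundant of them, had 46.7 ± 5.01 scaled TPM with vehicle and 42.6 ± 1.89 with DOX (SD, n = 3).

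Markers were checked for the label of a prostate cancer line. All 8 epithelial markers were tested, with a median log2 fold change of -0.08, with 4 of the 8 above 0 and 0 called by limma or by voom with the block. The 4 most abundant were MUC1 (log2 fold change 0.06), EPCAM (-0.32), CDH1 (-0.24) and ESRP2 (0.12). Of 8 prostate luminal markers, 2 were tested and 3 were listed at 0 in all samples, including KLK3, which encodes PSA. Of 6 basal markers outside the keratins, 2 were tested, and they went in opposite directions. DST, given above, was lower with DOX. ITGB4 was higher (log2 fold change 0.31, adjusted p = 0.430 by limma) and was not called by limma or by voom with the block. The 8 fibroblast and smooth muscle markers summed to 0.739 to 0.879 scaled TPM with vehicle and 0.607 to 1.05 with DOX. The 8 immune and endothelial markers summed to 14.0 to 15.7 with vehicle and 11.5 to 18.1 with DOX, nearly all of it from CD68, which epithelial lines also express, and PTPRC was near 0.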

How the data were processed

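Libraries of mRNA were prepared by the authors with a stranded kit from 3 vehicle and 3 DOX samples, aligned with STAR to GRCh38 and deposited as TPM per gene symbol. The counting tool, its strand setting and the versions of STAR and DESeq2 are not given in the sources used here, and the labels and the paper name different RNA isolation methods. The authors also deposited DESeq2 output. Its fold changes and p-values were not used, and its mean of normalized counts over all samples, an authors' value, served only to recover reads. Of 22501 low values (under 20 reads), 98.96% came out within 0.05 of a whole read. Identical samples were looked for and 0 pairs were found.

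TPM was divided by medians of ratios (15075 genes above 0 in every sample), and genes with a mean of at least 1 were tested on log2(scaled TPM + 1) with limma 3.58.1 (R 4.3.3, variance trend, no block) and Benjamini-Hochberg adjustment. Calls needed an adjusted p under 0.05 together with a fold change over 1.5. Alternatives were the replicate block, TPM as deposited, a pseudocount of 0.1, no filter, correction for GC content and exonic length by splines with 5 degrees of freedom (GENCODE 44, 90.4% of symbols matched), limma voom on recovered reads, and leaving out each sample. Limma with and without the replicate block, and voom without it, were tested on simulated data. Voom with the block and the fits with GC and length correction were not. Python 3.11.15, pandas 2.3.3, SciPy 1.17.1 and matplotlib 3.10.9 were used.

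Replicate numbers come from the sample titles, with nothing in the labels on what a shared number stands for. Once group means were subtracted, samples of equal number correlated across genes (r = 0.558, 0.259 and 0.186 for numbers 1, 2 and 3). The numbers were taken to pair the samples on that ground, a choice made from these same data. Correlations between samples of unlike number were not computed. After the GC and length correction r was 0.162, 0.00792 and 0.148.

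The members and the gene lists were chosen with earlier results of these data known. All 10 members were named, as were other keratins with a mean scaled TPM of at least 1. From each other list, genes were named among the 4 with the highest mean, together with those called. Not all 4 were named in each list. KLK3 and PTPRC were named as defining markers. Some items are not reported here. Genes called by voom with the block alone (DST, AKAP9) were named after their values were seen.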

Additional observations from a re-analysis of the deposited data

How the results depend on the processing

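The 5 tested keratins kept their direction under all alternatives on the scaled TPM and on reads. On TPM as deposited, with and without the replicate block, KRT18 turned to -0.12, KRT80 to -0.0067 and KRT10 to -0.19, a scale in which 5 small RNAs hold most of each total. Of the 5 listed keratins tested, the count called higher was 0 in the main comparison, 0 with the replicate block, 1 by voom with the replicate block, and 0 to 2 when samples or pairs were left out. The leave-out of pairs was chosen after seeing the data. None of them was called lower under any of the 19 alternatives. Over all genes, 0 were called lower and 0 higher in the main comparison and with the replicate block. On TPM as deposited 348 were lower and 3 higher, and with the replicate block 2217 and 15. By voom 1 was lower, with the replicate block 251 were lower and 170 higher, and with that block and GC and length correction 5 were lower. Leaving out samples or pairs gave 0 to 631 lower and 0 to 204 higher. Among the gains and losses by library, leaving out vehicle replicate 1 gave 15 genes called higher, and leaving out DOX replicate 2 gave 7 called lower. Over the alternatives the log2 fold change ran from 0.17 to 0.76 for KRT19, 0.12 to 0.73 for KRT7, 0.12 to 0.70 for KRT8, -0.12 to 0.55 for KRT18 and -0.01 to 0.52 for KRT80. The cause of the shifts between alternatives was not tested. KRT15, with 7 to 62 reads a sample, is limited by depth in all samples.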

Other observations

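Keratin pseudogenes share sequence with their parent genes, so their reads are uncertain. Of 12 keratin pseudogenes and antisense genes in the table, 8 were above 0 in at least 1 sample, and none exceeded 1.31 scaled TPM. KRT16P2, named after its values were seen, had 24, 50 and 3 reads with vehicle and 87, 3 and 3 with DOX, or 0.732, 1.31 and 0.291 scaled TPM against 0.668, 0.0810 and 0.0878. The groups overlapped because of DOX replicate 1. KRT16P3 had 3, 4 and 3 reads with vehicle and 3, 0 and 0 with DOX, and its scaled TPM was lower in all DOX samples. KRT7-AS, which runs antisense to KRT7, had 3, 0 and 1 reads with vehicle and 18, 6 and 3 with DOX. These counts are too few for a test, and whether they come from the pseudogenes or from parent genes was not tested.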
